A study of Mus musculus with 10 samples.

Results

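The genes Zfp900 to Zfp999 are mouse zinc finger genes, most of which lie in tandem clusters. All protein-coding genes of the mm10 annotation with symbols from Zfp900 to Zfp999 were taken, which gave 63 of 21938 protein-coding genes on 12 chromosomes. The members were taken by symbol and not by any measured value, but the set was chosen with earlier results of these data known. Zfp939 bears such a symbol too but is annotated as a pseudogene and was not included.

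Genes of this kind encode proteins with arrays of C2H2 zinc fingers, and many of these proteins carry a KRAB domain at the N-terminus. The fingers read DNA sequence, frequently within endogenous retroviruses and other transposable elements, and the KRAB domain recruits the corepressor TRIM28 (KAP1), with which the H3K9 methyltransferase SETDB1 and HP1 proteins act. The families grew by local duplication, so that neighbouring genes can be nearly identical, including their promoters. Deletion of whole clusters in mice is known to raise the expression of some endogenous retroviruses.

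Accessible chromatin was mapped by ATAC-seq, in which the transposase Tn5 inserts adapters into open DNA, in immortalized mouse embryo fibroblasts (iMEF). The cells were a clone with floxed Ash2l alleles and Cre-ER, in which exon 4 of endogenous Ash2l was deleted and a lentiviral fusion of FKBP12-F36V, HA tags and human ASH2L was expressed, so all libraries shared this background. The PROTAC dTAG-13 connects the fusion to the E3 ligase subunit Cereblon and leads to its degradation. There were 10 libraries in 5 groups of 2 replicates: no dTAG treatment, and dTAG-13 for 30 min, 4 h, 8 h or 24 h. Used here were the positions of 153924 sites found over all libraries together. The list has no value per library, so the depth is unknown, no difference between time points could be examined and no test was made. The values below therefore describe the pooled list, beside the same measure over other genes. Shares carry a 95% Wilson interval, which covers only the number of genes and is too narrow for genes of a cluster, since these are copies of each other and are not independent.

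The list was first compared with the labelled cell type. A site lay within 1 kb of a start site of 9 of 10 fibroblast marker genes, all except Lum, and the median of their widest promoter site was 1886 bp. Of 9 marker genes of blood, epithelial, endothelial, liver and neuronal cells, 5 had such a site, with a median width of 706 bp, and Ptprc, Alb, Cd3e and Krt5 had none. The widths ranged from 659 to 2865 bp in the fibroblast markers and from 382 to 1500 bp in the others, so they overlapped. Over all protein-coding genes 70.8% had such a site, and the median of the widest was 1412 bp.

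The promoters of 6 members are shown, as given by RefSeq for GRCm38.p6, from 250 bp before to 50 bp after the start, 5' to 3' on the strand of the gene. Letters in capitals are matches, on either strand, to the consensus motifs searched below. Zfp942 (chr17:21962415-21962714, minus strand) lies under the widest promoter site of the family and Zfp950 (chr19:61140791-61141090, minus strand) under the narrowest, when the widest site of each gene is taken. Zfp979 (chr4:147642459-147642758, minus strand) has no site, whereas Zfp984 (chr4:147809739-147810038, minus strand), the nearest member with a site in the same cluster, has one. Zfp966 (chr2:175931051-175931350, minus strand) and Zfp970 (chr2:177464492-177464791, plus strand) were added after the values were seen, because they are nearly identical but only Zfp970 has a site.
Zfp942: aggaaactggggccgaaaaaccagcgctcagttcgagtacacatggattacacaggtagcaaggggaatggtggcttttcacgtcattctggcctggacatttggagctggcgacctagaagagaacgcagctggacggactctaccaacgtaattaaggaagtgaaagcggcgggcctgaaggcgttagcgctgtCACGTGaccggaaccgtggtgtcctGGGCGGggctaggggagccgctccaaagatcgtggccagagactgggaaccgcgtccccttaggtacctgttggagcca
Zfp950: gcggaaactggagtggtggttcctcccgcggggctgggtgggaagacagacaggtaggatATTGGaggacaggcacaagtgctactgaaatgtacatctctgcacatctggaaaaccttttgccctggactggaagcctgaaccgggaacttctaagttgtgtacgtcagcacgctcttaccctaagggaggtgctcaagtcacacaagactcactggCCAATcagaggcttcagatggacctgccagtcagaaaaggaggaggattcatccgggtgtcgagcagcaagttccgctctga
Zfp979: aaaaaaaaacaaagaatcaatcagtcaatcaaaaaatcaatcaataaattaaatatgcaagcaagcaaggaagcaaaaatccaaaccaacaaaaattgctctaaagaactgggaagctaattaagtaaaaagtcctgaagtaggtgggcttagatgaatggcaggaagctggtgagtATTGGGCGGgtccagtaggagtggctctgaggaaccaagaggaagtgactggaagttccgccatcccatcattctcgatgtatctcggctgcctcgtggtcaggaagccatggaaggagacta
Zfp984: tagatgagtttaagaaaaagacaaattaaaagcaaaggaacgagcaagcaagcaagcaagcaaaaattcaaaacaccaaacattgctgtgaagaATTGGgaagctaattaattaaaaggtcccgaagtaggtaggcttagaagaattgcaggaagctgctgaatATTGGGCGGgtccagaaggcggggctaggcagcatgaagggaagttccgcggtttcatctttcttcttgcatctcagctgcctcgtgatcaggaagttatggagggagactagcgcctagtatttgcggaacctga
Zfp966: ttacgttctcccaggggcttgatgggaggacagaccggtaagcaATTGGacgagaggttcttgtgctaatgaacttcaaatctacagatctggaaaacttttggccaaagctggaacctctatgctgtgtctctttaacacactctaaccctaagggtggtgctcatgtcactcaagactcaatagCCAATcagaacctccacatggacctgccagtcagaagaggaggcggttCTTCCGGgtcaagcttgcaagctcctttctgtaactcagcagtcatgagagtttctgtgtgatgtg
Zfp970: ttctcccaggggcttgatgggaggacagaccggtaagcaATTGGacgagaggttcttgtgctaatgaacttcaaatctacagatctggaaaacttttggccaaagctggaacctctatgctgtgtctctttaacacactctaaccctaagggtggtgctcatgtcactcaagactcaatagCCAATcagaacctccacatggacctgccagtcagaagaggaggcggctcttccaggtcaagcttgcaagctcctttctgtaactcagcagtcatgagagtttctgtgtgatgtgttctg

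Of the 63 members, 39 had a promoter site, that is a site overlapping the window of 1 kb either side of an annotated start site (61.9%, 95% Wilson interval 49.6 to 72.9). Over all protein-coding genes the share was 70.8%, and it was 93.4% (282 of 302) among the other genes named Zfp and a number. Among 196 further coding genes with at least 5 matches to the C2H2 finger pattern, 151 had a promoter site (77.0%). With RefSeq start sites, which were given for 53 members, the share was 69.8% in the members and 69.5% in all coding genes. The order of these shares thus turned, but the set of members differed too. Of the 10 members left out, Zfp930, Zfp934 and Zfp960 had a promoter site on the GENCODE start sites. The others left out, Zfp969, Zfp990, Zfp986, Zfp992, Zfp989, Zfp991 and Zfp978, had none. Among the members kept, only Zfp982 differed between the annotations in whether it had a promoter site. The 24 members without a promoter site on the GENCODE start sites were concentrated in 2 places. Of the 26 members in the groups on distal chromosome 2 and on chromosome 4, 5 had a promoter site (19.2%, interval 8.51 to 37.9). Of the 37 members elsewhere, 34 had one (91.9%, interval 78.7 to 97.2). This division was made with the values in view and is a description.

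**Figure D1:**
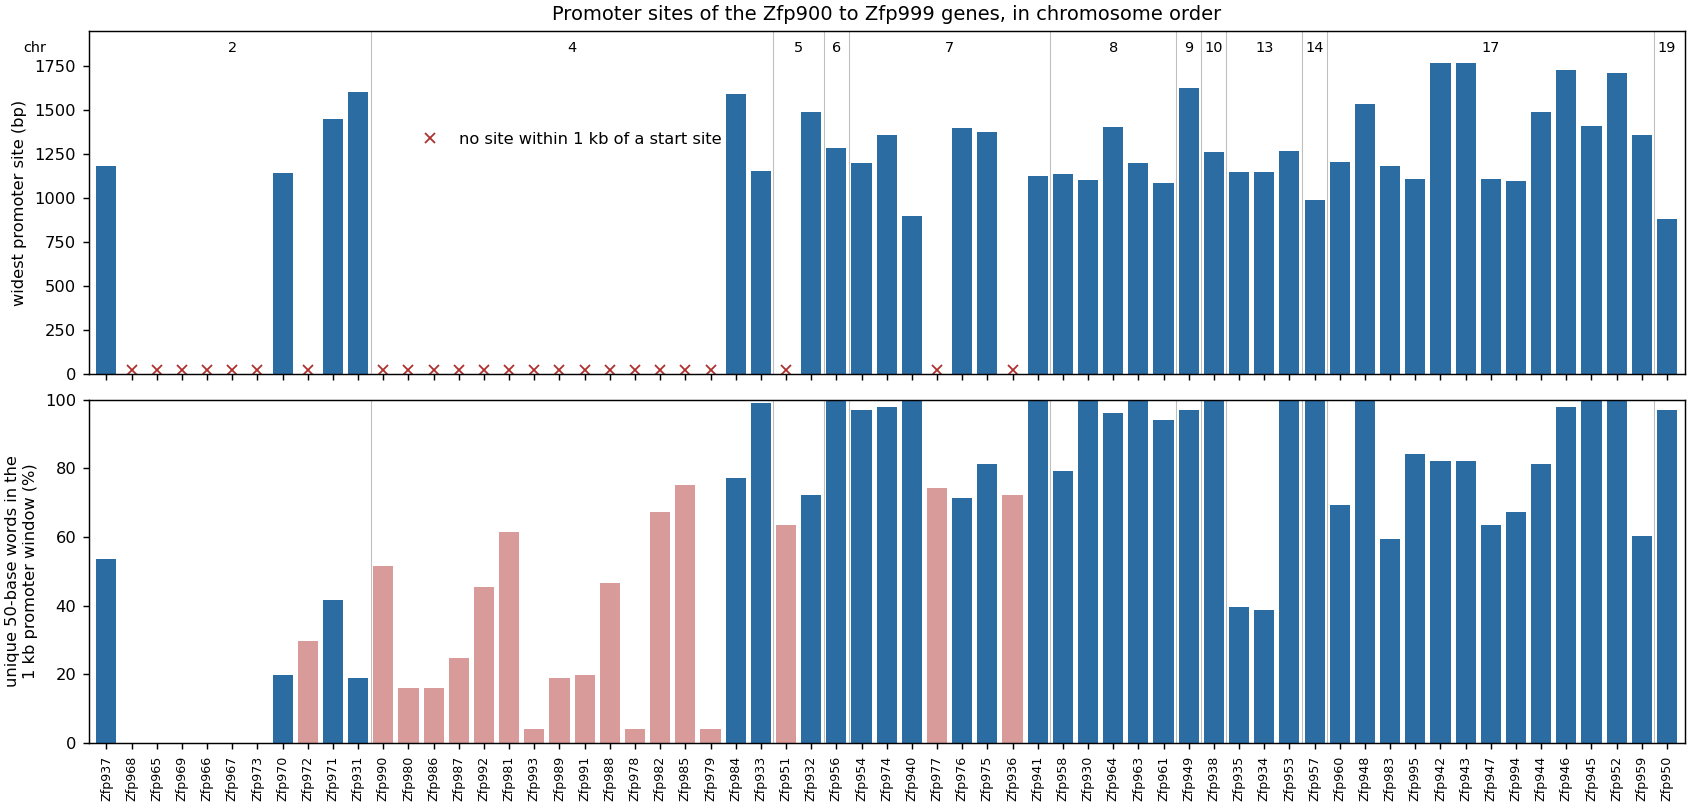
The 63 members in chromosome order, with the width of the widest promoter site (upper panel, bp; crosses mark the 24 members without a site) and the percentage of unique 50-base words in the window of 1 kb either side of the 5' end (lower panel; blue with a site, red without). The empty stretches of the upper panel fall on chromosomes 2 and 4, where the lower panel is at or near 0 for many genes.

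Reads from near-identical copies cannot be assigned to 1 place, which can keep a site out of such a list. Promoter sites were counted at every annotated start site, but here only the window of 1 kb either side of the outermost 5' end was used. The share of 50-base words in this window that occur once in the primary assembly, called the unique share here, was therefore computed for each gene. Its median was 69.3% over the members and 100% over all other protein-coding genes. With words of 100 bases, the median over the members was 90.1%. The unique share differed between members with and without a site. Its median was 84.2% for the 39 members with a site (range 18.8 to 100) and 19.3% for the 24 without (range 0 to 75.2), so the ranges overlapped. Its part in the absence of sites was not tested.

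All 19 members with a unique share of at least 90% had a promoter site (interval 83.2 to 100), beside 77.4% of the 19063 other coding genes in this class and 260 of 271 other numbered Zfp genes. From 60% to under 90% the count was 13 of 19 members, and 39.6% of 1448 other coding genes. From 20% to under 60% it was 5 of 10 members and 22.8% of 522 other genes. Below 20% it was 2 of 15 members and 5.82% of 842 other genes. Thus promoter sites became less frequent with each lower class, in the members and in the rest of the coding genes. In each class their frequency was higher in the members than in all other coding genes, a difference that was not tested. This was not so beside the more similar sets. Of the other numbered Zfp genes, 19 of 22 (86.4%) had a site from 60% to under 90%, 3 of 5 from 20% to under 60% and 0 of 4 below 20%. Of the further finger genes the counts were 24 of 36 (66.7%), 4 of 9 and 7 of 26 (26.9%). The 7 members with a site despite a unique share below 60% were Zfp937, Zfp970, Zfp971, Zfp931, Zfp935, Zfp934 and Zfp983. For Zfp934 the nearest site lay 9.03 kb from the 5' end at which the unique share was taken. The 6 members without a site despite a unique share of at least 60% were Zfp981, Zfp982, Zfp985, Zfp951, Zfp977 and Zfp936, among which Zfp982 has a site at a RefSeq start. The RefSeq starts of Zfp981 and Zfp936 lay 12893 and 63361 bp from the 5' end at which the unique share was taken.

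**Figure D2:**
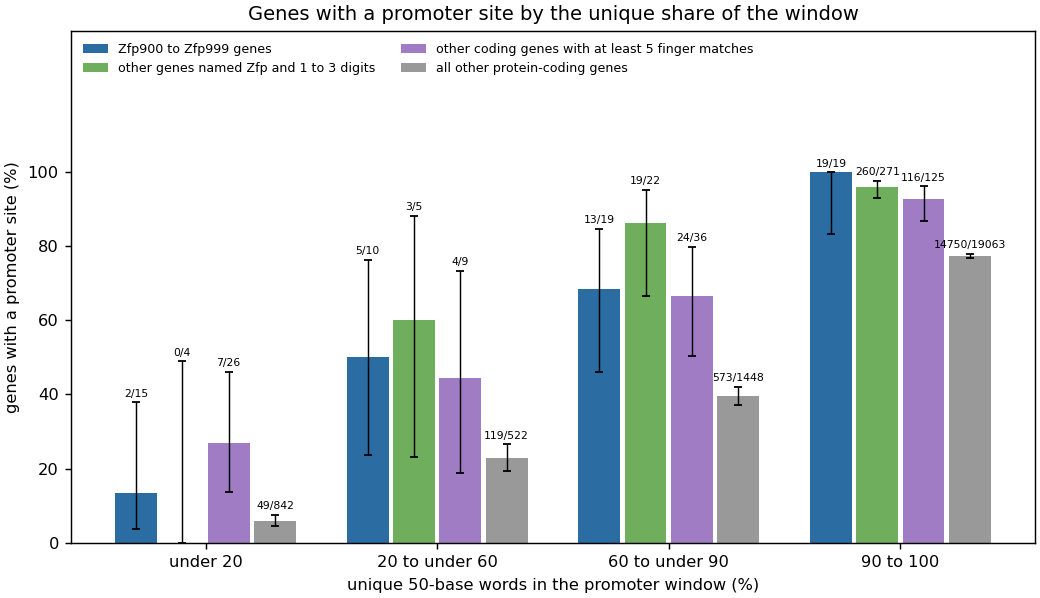
Percentage of genes with a promoter site, by the unique share of the promoter window, for the members and 3 sets of other coding genes; bars give the share, error bars the 95% Wilson interval, and the numbers genes with a site of all genes in the class. Among the members the share goes from 2 of 15 in the lowest class to 19 of 19 in the highest.

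Neighbouring members were joined into a cluster when they lay at most 500 kb apart. This gave 26 clusters, of which 8 held more than 1 gene, and 18 members stood alone. The largest cluster, on chromosome 4, held 16 members, the next, on chromosome 17, held 10. On distal chromosome 2, 10 members fell into 3 clusters of 4, 2 and 4 genes that joined into 1 when gaps of up to 1000 kb were allowed, and they are described together. A cluster of 4 members on chromosome 7 was tied with these in size.

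The chromosome 4 cluster spans chr4:145510759-147848366 (2.34 Mb, from Zfp990 to Zfp933) and 18.5% of it is unsequenced in the assembly. Only the last 2 of its 16 members along the chromosome, Zfp984 and Zfp933, had a promoter site. Zfp984 had a site of 1591 bp at chr4:147808690-147810280 and Zfp933 one of 1156 bp at chr4:147847875-147849030. Their unique shares were 77.2% and 99.0%. When patch sequences and alternate loci were counted too, these became 12.9% and 61.4%. The 14 members without a site were Zfp990, Zfp980, Zfp986, Zfp987, Zfp992, Zfp981, Zfp993, Zfp989, Zfp991, Zfp988, Zfp978, Zfp982, Zfp985 and Zfp979. Their unique share ranged from 3.96% (Zfp993, Zfp978 and Zfp979) to 75.2% (Zfp985).

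Among these 14 genes, Zfp982, with a unique share of 67.3% (64.4% with patches, 91.1% with 100-base words), lay 36.1 kb from the nearest site of any kind, as measured from its GENCODE 5' end. A further RefSeq start of Zfp982, whose promoter is given at chr4:147442864-147443163, had a site within 1 kb, so the gene was without a promoter site only on the GENCODE start sites. No other member changed in this way. Zfp985 had a unique share of 75.2%, but of 10.9% when patches were counted, and lay 24.6 kb from the nearest site. Zfp981, with a unique share of 61.4%, was the closest of them to a site, at 3.39 kb. The distance was largest for Zfp987, at 322.2 kb. In the whole cluster 27 sites were listed, or 14.2 per sequenced Mb, whereas chromosome 4 as a whole had 61.2 per Mb. Of the 27 sites, 16 were distal, that is further than 1 kb from every annotated start site. The cluster also holds 6 coding genes that are not members, of which 1 had a promoter site.

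The promoters of the chromosome 4 members were poor in CpG. The ratio of observed to expected CpG within 500 bp of the 5' end had a median of 0.199 in the 14 members without a site (range 0.139 to 0.308). It was 0.273 for Zfp984 and 0.492 for Zfp933. In the printed promoters of Zfp979 and Zfp984, whose 5' ends are 167.3 kb apart, the same composite match ATTGGGCGG stands upstream of the start, in which the NF-Y letters and the Sp letters overlap. The promoter of Zfp979 holds 5 CpG and that of Zfp984 9 CpG over the printed length.

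The group on distal chromosome 2 spans chr2:175372436-178078476 (2.71 Mb). Its 10 members were, in order, Zfp968, Zfp965, Zfp969, Zfp966, Zfp967, Zfp973, Zfp970, Zfp972, Zfp971 and Zfp931. Only Zfp970, Zfp971 and Zfp931 had a promoter site. The unique share was 0 for the promoter windows of the first 6 genes, also with 100-base words, so none of the sampled words, 1 every 20 bp, occurred once in the primary assembly. In the other 4 it was 19.8% (Zfp970), 29.7% (Zfp972, without a site), 41.6% (Zfp971) and 18.8% (Zfp931). The 3 genes with a site thus lay at the distal end, where the unique share was above 0. Over the group, 16 sites were listed (7.09 per sequenced Mb), and chromosome 2 had 64.7 per Mb. Of 28 other coding genes in this span, 21 of them with at least 5 finger matches, 8 had a promoter site. Zfp966 was the member farthest from any site, at 776.7 kb.

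Zfp970 was the only member with 2 promoter sites, one of 1145 bp (chr2:177464629-177465773) and one of 207 bp (chr2:177464227-177464433). The site of Zfp971 was 1450 bp wide and that of Zfp931 1605 bp. The RefSeq promoters of Zfp966 and Zfp967 were identical over their whole length. That of Zfp970 matched Zfp966 at 293 of 295 aligned bases (99.3%). Counted from 1 at the 5' end of the printed Zfp966 sequence, the differences were T233C and G240A. G240A lies within the CTTCCGG match (positions 235 to 241), which is the reverse complement of the Ets letters CCGGAAG, and Zfp970 has no such match. Of the 9 chromosome 2 members with a RefSeq promoter, the 6 without a site held the Ets letters and the 3 with a site did not, while all 9 held CCAAT. Apart from that of Zfp972, whose best match in the group was 79.8% identical, these promoters are near-copies, and the genes without a site also had the unique shares given above, so nothing is read from these letters about binding.

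The cluster on chromosome 17 (chr17:21567008-22867134, 1.30 Mb) gave another picture. All 10 members, Zfp948, Zfp983, Zfp995, Zfp942, Zfp943, Zfp947, Zfp994, Zfp944, Zfp946 and Zfp945, had a promoter site. Their unique shares ranged from 59.4% (Zfp983) to 100% (Zfp948 and Zfp945), and their CpG ratios from 0.288 to 0.778. The cluster held 36 sites or 27.8 per sequenced Mb, with 58.0 per Mb on chromosome 17. Distal sites numbered 19 (14.7 per Mb, 44.9 per Mb on the chromosome). Of 8 other coding genes in the span, 5 had a promoter site, all with at least 5 finger matches.

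Zfp942 and Zfp943 are transcribed in opposite directions from 5' ends 88 bp apart and shared a site of 1771 bp (chr17:21961870-21963640), the widest promoter site of any member. The next were those of Zfp946 (1729 bp, chr17:22423441-22425169) and Zfp952 (1710 bp, chr17:32992183-32993892). The promoter of Zfp944 was nearly the same as that of Zfp942, with 274 of 275 aligned bases equal, and both genes had a site (1488 bp for Zfp944). The site of Zfp944 was also within 1 kb of a start site of Zfp758. The unique share of the whole window was 82.2% for Zfp942 and 81.2% for Zfp944.

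**Figure D3:**
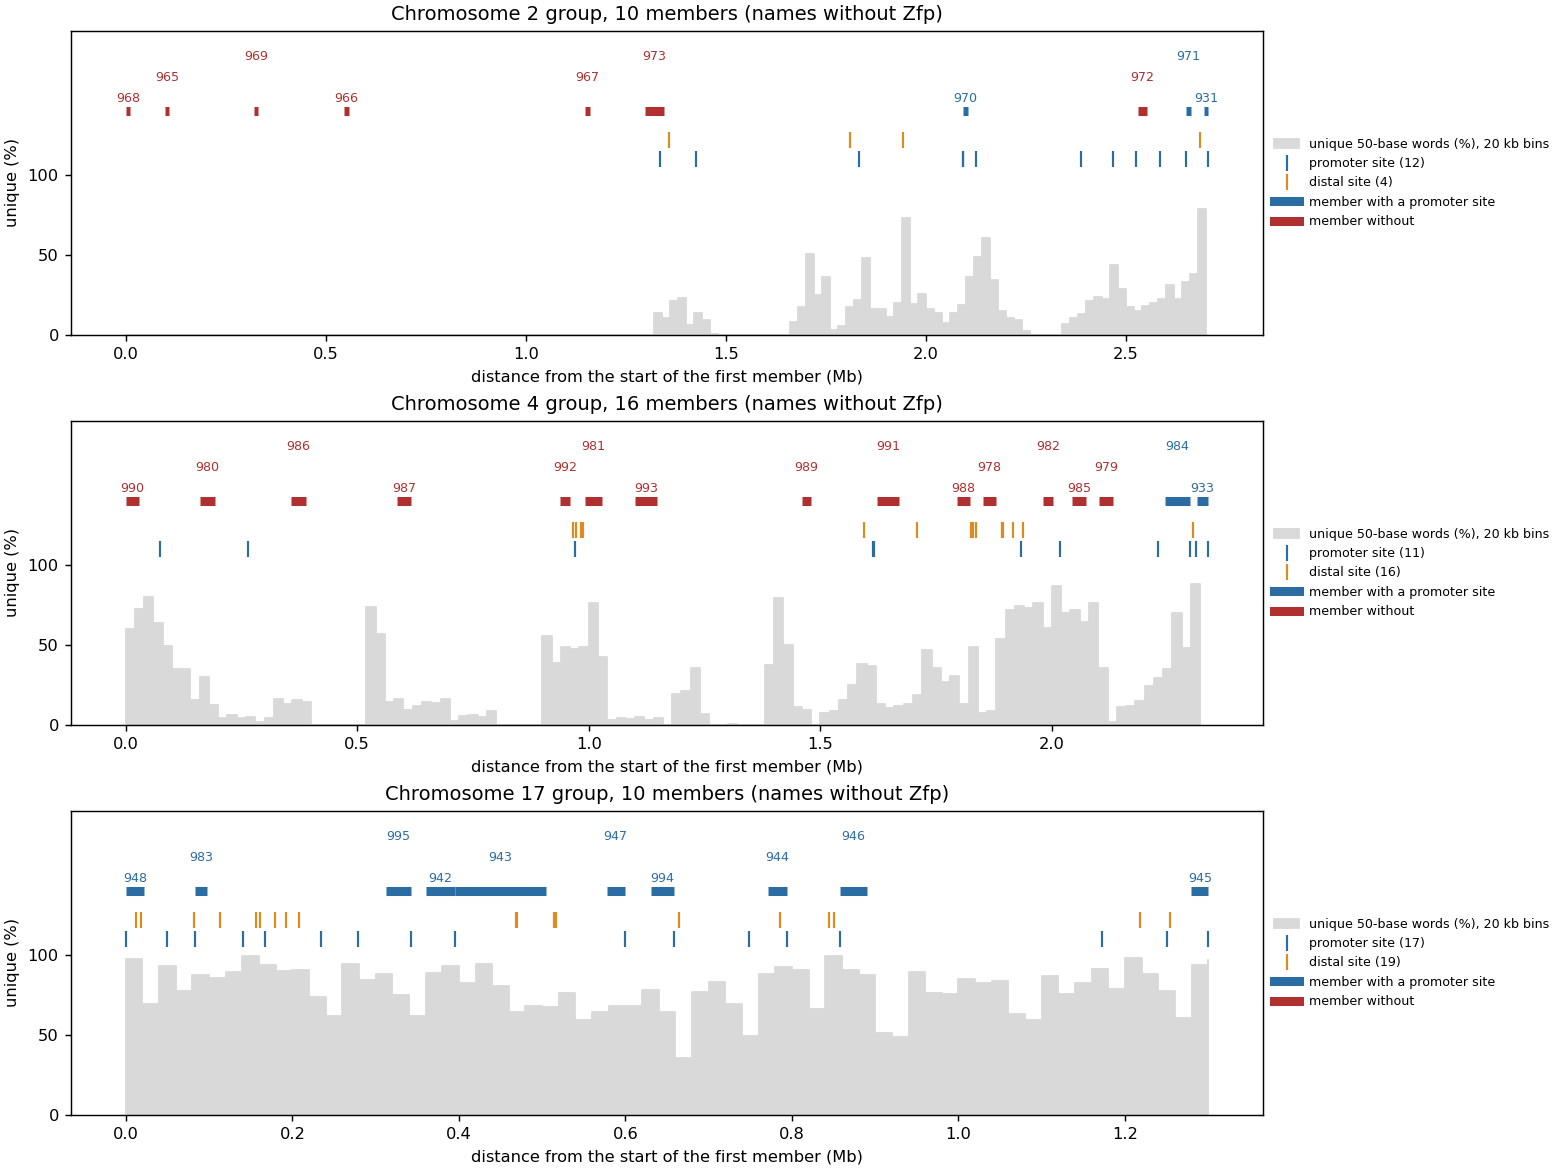
The groups on chromosomes 2, 4 and 17, with member genes (blue with, red without a promoter site), promoter sites of any gene, distal sites and the unique share in bins of 20 kb, against the distance from the start of the first member (Mb). Bins without sequence are drawn at 0, and the long stretches near 0 on chromosomes 2 and 4 hold few or no sites, whereas sites are spread over the chromosome 17 cluster.

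Outside these groups, Zfp951, Zfp977 and Zfp936 were without a promoter site. Zfp977 and Zfp936 belong to the chromosome 7 cluster (chr7:42579783-43192109), in which Zfp976 (1399 bp) and Zfp975 (1379 bp) had sites. The unique shares of these 4 genes were similar, with 74.3% for Zfp977, 72.3% for Zfp936, 71.3% for Zfp976 and 81.2% for Zfp975. Zfp977 lay 3.10 kb from the nearest site and Zfp936 136.6 kb. Zfp951 on chromosome 5 had a unique share of 63.4% and no site within 287.8 kb. On the same chromosome, Zfp932, whose protein is known to repress endogenous retroviruses, had a site of 1492 bp (chr5:109996035-109997526), with a unique share of 72.3%. Zfp934 and Zfp935 on chromosome 13 shared a site of 1147 bp at chr13:62558018-62559164.

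The 39 members with a promoter site had 38 distinct sites, since 2 sites were shared by a pair of members and Zfp970 had 2. Their median width was 1234.5 bp (range 207 to 1771), beside 1180 bp for the 20900 promoter sites of all other coding genes and 1250 bp for those of the other numbered Zfp genes. The quartiles were 1131 and 1441 bp for the members and 688 and 1571 bp for the other coding genes. Of the 38 sites, 0 reached 2000 bp and 1 was under 800 bp, compared with 9.33% and 29.9% of the promoter sites of the other coding genes. These shares were 6.16% and 18.2% in the other numbered Zfp genes, and 11.4% and 23.2% in the further finger genes. When the widest promoter site of each gene was taken, the medians were 1265 bp in the members and 1412 bp in the other coding genes. They were 1320.5 bp in the other numbered Zfp genes and 1366 bp in the further finger genes. Among the members, the narrowest such sites belonged to Zfp950 (884 bp), Zfp940 (899 bp) and Zfp957 (991 bp).

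A start site of a member was covered by 36 of the 38 sites, the others being the narrow site of Zfp970 and the site of Zfp957, whose middle was 1291 bp from the nearest start. Counted by genes with a promoter site, the widest site covered a start in 97.4% of the members and 89.1% of the other coding genes. In the other numbered Zfp genes it did so in 96.5%. A start covered only by a narrower site was not counted, which bears on genes with more than 1 promoter site. The middle of the widest site lay at a median of 37 bp downstream of the start site in the members and 33 bp in the other coding genes. Only 1 of 63 members (1.59%) had more than 1 promoter site, beside 21.7% of the other coding genes. The share was 18.9% in the other numbered Zfp genes and 18.4% in the further finger genes. The members had a median of 2 annotated start sites and the other coding genes 3. A start site of another coding gene was within reach of 2 of the 38 sites, that of Zfp944 (Zfp758) and that of Zfp953 (Gm28044).

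CpG islands mark many promoters of constitutively expressed genes and are the main places of H3K4 trimethylation, to which ASH2L contributes as a core subunit of the KMT2 complexes. An island, computed from the genome, lay at a start site of 12 of 63 members (19.0%, interval 11.2 to 30.4). The share was 59.3% in the other coding genes, 74.2% in the other numbered Zfp genes and 57.7% in the further finger genes. All 12 members with an island had a promoter site (95.7% in the other coding genes). They were Zfp956, Zfp954, Zfp974, Zfp964, Zfp963, Zfp961, Zfp949, Zfp942, Zfp943, Zfp994, Zfp944 and Zfp959. Of the 51 members without an island, 27 had a promoter site (52.9%, interval 39.5 to 65.9), beside 34.7% of the 8907 other coding genes without an island. The share was 79.5% of the 78 other numbered Zfp genes and 50.6% of the 83 further finger genes without one. Hence 12 of the 39 members with a promoter site (30.8%) had an island, while 80.1% of the other coding genes with a site did.

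The CpG ratio followed the same order. A promoter site was found in 1 of 12 members with a ratio under 0.25, in 8 of 16 from 0.25 to under 0.35, in 16 of 21 from 0.35 to under 0.5 and in all 14 at 0.5 or above. In the other coding genes the shares were 28.2%, 53.3%, 73.5% and 95.7%. They were 40%, 78.3%, 97.7% and 97.7% in the other numbered Zfp genes. In the further finger genes they were 20%, 50%, 90.9% and 94.5%. The 1 member with a site in the lowest class was Zfp957, with a ratio of 0.203 and a unique share of 100%. Most chromosome 4 members were low in both the CpG ratio and the unique share.

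**Figure D4:**
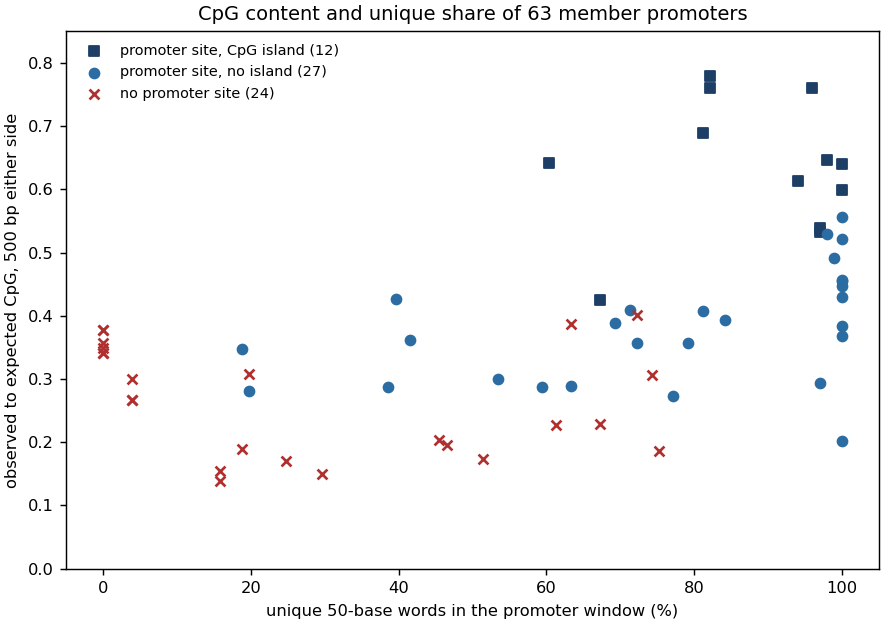
CpG ratio within 500 bp of the 5' end against the unique share of the promoter window (%) for the 63 members; squares have a promoter site and an island (12), circles a site and no island (27), crosses no site (24). All members with a ratio of at least 0.5 have a site, and the crosses reach a unique share of 75.2%.

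Consensus letters were searched on both strands of each RefSeq promoter, for which 60 entries of 53 members were given, and 20090 entries of other coding genes. Not all RefSeq starts were near the GENCODE 5' end. The distance was 12893 bp for Zfp981, 63361 bp for Zfp936, 91699 bp for Zfp935 and 98112 bp for Zfp993. Further entries of Zfp982 lay 8269 and 49303 bp away. CCAAT, the letters of NF-Y, occurred in 46 of the 60 entries (76.7%), in 37.7% of the other entries and in 41.7% of those of the other numbered Zfp genes. CCGGAAG (Ets) occurred in 18 (30.0%), beside 11.8% of other entries and 20.2% of those of the other numbered Zfp genes. In the same order, GGGCGG (Sp and Klf) occurred in 19 (31.7%), beside 47.8% and 46.4%. CACGTG (E-box) occurred in 7 (11.7%), beside 8.02% and 5.63%, and TGACGTCA (CRE) in 1 (1.67%), beside 2.31% and 3.97%. TATAAA, the TATA box, occurred in 0 of 60 entries, in 12.2% of the others and in 8.28% of those of the other numbered Zfp genes. The AP-1 letters TGANTCA, the Egr letters GCGGGGGCG and the NRF1 consensus also occurred in 0 entries, and in 7.02%, 4.02% and 6.62% of the others. In the other numbered Zfp genes these were 4.30%, 3.64% and 10.6%. Many of the 60 entries are copies of each other. There were 25 pairs of members with at least 95% identity over the aligned bases, formed by 12 genes, and 9 of the pairs were within a cluster as joined at 500 kb. NF-Y letters were present in 28 of 40 entries of members with a site and in 18 of 20 of members without. For the Ets letters these counts were 8 of 40 and 10 of 20.

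Away from the promoters, sites were scarce. The median number of distal sites within 50 kb of the 5' end was 1 in the members (range 0 to 8), 4 in the other numbered Zfp genes, 2 in the further finger genes and 5 in the other coding genes. At least 1 distal site within 50 kb was present for 36 of 63 members (57.1%, interval 44.9 to 68.6), and for 87.7% of all protein-coding genes. The share was 68.4% in the further finger genes (interval 61.6 to 74.5) and 86.8% in the other numbered Zfp genes. The nearest distal site was at a median of 34.9 kb from the members and of 8.75 kb from the other coding genes. Of the 63 members, 14 had no site of any kind within 50 kb, 12 of them in the groups on chromosomes 2 and 4 and the others being Zfp951 and Zfp936. Hence 77.8% of the members had some site within 50 kb, beside 90.2% of the other coding genes, 98.0% of the other numbered Zfp genes and 86.7% of the further finger genes.

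Scarcity of distal sites was not limited to the groups on chromosomes 2 and 4. Among the 37 members elsewhere the median was 2 distal sites and 11 had none, namely Zfp937, Zfp951, Zfp954, Zfp936, Zfp938, Zfp953, Zfp960, Zfp995, Zfp942, Zfp943 and Zfp947. Among the 26 members of the 2 groups the median was 0. The members with most distal sites were Zfp949 on chromosome 9 and Zfp957 on chromosome 14, with 8 each. Over the joined windows of 50 kb either side, 89 distal sites lay in 5.52 sequenced Mb, or 16.1 per Mb, while the windows of the other coding genes held 57.2 per Mb. When only the unique part of the sequence was counted as length, the densities were 27.8 and 65.2 per Mb. The densities per sequenced Mb and per unique Mb were 34.4 and 44.8 in the further finger genes. In the other numbered Zfp genes they were 48.5 and 54.6. The members outside the 2 groups had 27.7 and those inside 28.1 distal sites per unique Mb.

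The surroundings of the members were rich in repeats. Soft-masked repeats made up a median of 44.5% of the sequence within 50 kb of the 5' ends, beside 30.5% in the other coding genes. The unique share of the same stretch was 68.6% in the members and 94.7% in the other coding genes. For the 30 members with a unique share between 60% and under 90% in this stretch, the median was 1.5 distal sites, and for 4824 other coding genes of this class it was 3. It was 2 for 100 other numbered Zfp genes and 1 for 53 further finger genes of this class. For the 8 members at 90% or above the median was 4, and 6 in the other coding genes. There it was 5 in the other numbered Zfp genes and 5 in the further finger genes. The median number of other coding genes within 50 kb was 1 for the members and 1 for the further finger genes. It was 2 for the other numbered Zfp genes and 2 for all other coding genes. The part of repeats, unique share and gene density in the number of distal sites was not tested.

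**Figure D5:**
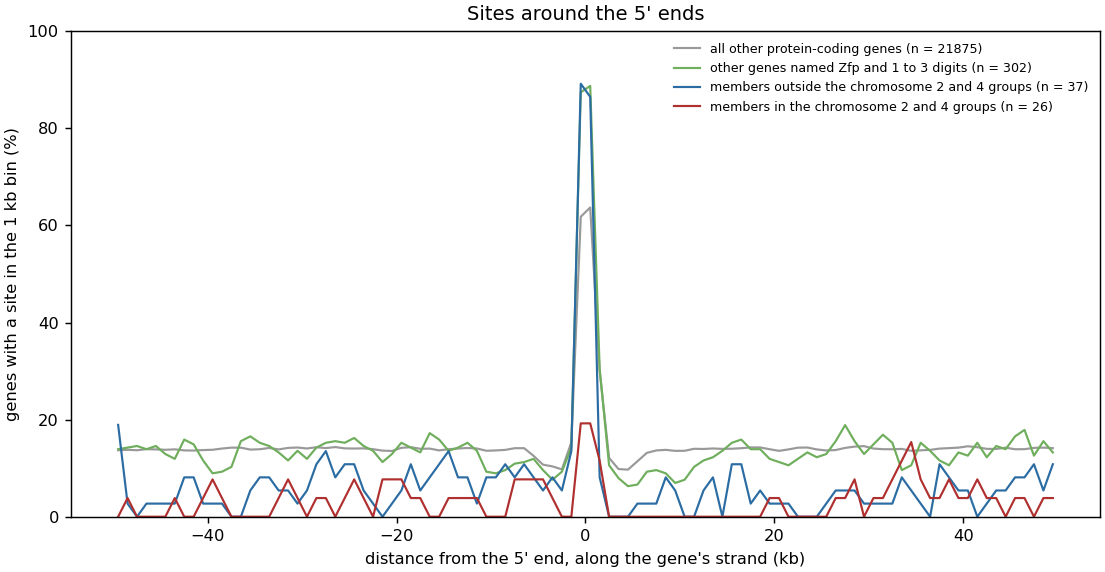
Percentage of genes with a site in each bin of 1 kb, against the distance from the 5' end along the strand of the gene (kb), for members inside and outside the groups on chromosomes 2 and 4, other numbered Zfp genes and all other protein-coding genes. At the start the curves of members outside the groups (89.2%) and of other Zfp genes (88.7%) are alike, while beyond 5 kb they average 5.50% and 13.1%. The groups were set apart with the promoter sites in view, and no genes were removed from the other sets, so the likeness at the start is only a description.

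Within gene bodies, a distal site was found in 10 of 63 members (15.9%, interval 8.86 to 26.8) and in 50.6% of all protein-coding genes. The share was 34.8% in the other numbered Zfp genes and 34.2% in the further finger genes. The 10 members were Zfp940, Zfp961, Zfp949, Zfp935, Zfp934, Zfp957, Zfp948, Zfp943, Zfp944 and Zfp950. None of the 26 members on distal chromosome 2 and chromosome 4 was among them. The median gene length was 22653 bp in the members and 17385 bp in the other coding genes. Summed over genes, the bodies of the members held 1.18 distal sites per 100 kb. Those of the other numbered Zfp genes held 4.17, those of the further finger genes 5.15 and those of all other coding genes 5.76.

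The fingers of these proteins are encoded mostly by the last coding exon, which had a median length of 1225 bp in the members. A site overlapped this exon in 2 of 63 members (3.17%), Zfp940 and Zfp961, in 6.62% of the other numbered Zfp genes and in 9.35% of the other coding genes, whose last coding exon is shorter (median 177 bp). The longest annotated coding sequence of the members held a median of 11 finger matches (range 0 to 21), and 57 of 63 had at least 5. The exceptions were Zfp972, Zfp993, Zfp978, Zfp979, Zfp935 and Zfp957. The number of fingers did not separate the members by promoter site, with a median of 11 in those with a site and of 11 in those without.

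Finally, the genes of the silencing machinery with which KRAB zinc finger proteins act were examined. All 21 listed genes, among them the corepressor gene Trim28, the H3K9 methyltransferase gene Setdb1, the HP1 genes Cbx1, Cbx3 and Cbx5, and the DNA methyltransferase genes Dnmt1, Dnmt3a and Dnmt3b, had a promoter site. The widest site of each ranged from 913 bp (Chd3) to 2848 bp (Dnmt3a), with a median of 1599 bp and a median of 7 distal sites within 50 kb. For Trim28 the widest promoter site was 2432 bp and for Setdb1 1416 bp. Over all protein-coding genes 70.8% had a promoter site, and 95.7% of those with an island, while the other coding genes had a median widest site of 1412 bp and a median of 5 distal sites.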

How the data were processed

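ATAC-seq libraries of 10 iMEF samples were used as deposited by the authors in 1 table: chromosome, start and end of each site over all libraries, with no counts or values per library. Per the labels and the methods, the authors used BWA (mm10), SAMtools, MACS2 and DESeq2 and merged replicates. By the methods, reads were filtered with SAMtools on ENCODE's advice and parts of nf-core code were used, but which alignments this removed is not said. Versions, peak threshold, read length, the handling of multiply aligned reads and Tn5 shift were not given in the sources used here. Each can alter the number and width of sites, in particular in duplicated sequence. Positions (bp) were treated as BED coordinates and are printed 1-based. Of 153924 sites, 153682 lay on chromosomes and 0 ended beyond GRCm38.

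Start sites came from GENCODE M21 (the authors used M25). Distal sites were over 1 kb from every start site. Islands were segments of at least 200 bp outside soft-masked bases with GC over 0.5 and a CpG ratio over 0.6. Unique shares used 50-base words every 20 bp over the primary assembly, either strand. Fingers were matches in translated coding sequence to C, 2 residues, C, 12 residues, H, 3 to 5 residues, H. Promoters were aligned globally with free end gaps. Functions were tested on simulated data. Members, lists and the rule for named genes (widest and narrowest sites, several or no sites, largest clusters including ties, most or no distal sites, lowest unique share, Zfp932) were chosen with earlier results of these data known. Further members in lists of names were named after their values were seen. Computations used Biopython 1.88 and Numba 0.67.0 under Python 3.11.15, with NumPy 2.4.6 and SciPy 1.17.1.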

Additional observations from a re-analysis of the deposited data

How the results depend on the processing

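No paired analysis was possible because library values were lacking, and replicates could not be left out for the same reason. The share of members with a promoter site was 60.3% to 61.9% under windows of 500 bp and 3 kb, the outermost 5' end only, protein-coding transcripts only, wider sites and site middles, and 69.8% of 53 members with RefSeq start sites (69.5% of all coding genes on that annotation). Without the groups on chromosomes 2 and 4, a choice made after seeing the data, it was 91.9%. The median number of distal sites was 3 within 100 kb (all coding genes 11) and between 0 and 2 in the other alternatives. Stricter islands left 4.76% of members with one (all coding genes 41.5%). The median unique share was 90.1% with 100-base words, and 63.4% with patches and alternate loci. The median width stayed between 1234.5 and 1265 bp, and the number of clusters was 32 at 250 kb and 24 at 1000 kb. Median widths of members and of all other coding genes changed order with the definition: 1234.5 against 1180 bp over all promoter sites, 1265 against 1270 bp in the window of 500 bp and 1265 against 1412 bp for the widest site of each gene. The cause of these shifts was not tested. The alignment of proteins of member pairs was not run.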
